A study of Bos taurus with 37 samples.

Results

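The translation initiation factors described here are the 54 genes, of 22628 rows in the expression table, whose symbol begins with EIF1 to EIF6, with the sex-linked genes of that name set aside. The symbol rule found 58 rows and 4 were left out. The members were read by complex: 13 subunits of eIF3, 5 of eIF2B, 5 genes of the eIF4A helicases and their cofactors, 4 eIF2 kinases, 4 genes of eIF2 and initiator tRNA carriers, 4 of the eIF4E family, 4 that bind eIF4E, 3 eIF4G scaffolds, 3 of the eIF1 group, 2 of eIF5A, 2 of eIF5 and eIF5B, and eIF6. The remaining 4, EIF2C1 to EIF2C4, are older symbols of Argonaute genes, which act in small RNA silencing and not in initiation, and they were kept because the symbol rule takes them. The row EIF3CL stands for the eIF3 subunit c, and it may share reads with a closely similar copy.

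Initiation is the step of protein synthesis at which the ribosome finds the start codon. eIF2 brings the initiator tRNA to the small ribosomal subunit and is recharged by eIF2B, and stress kinases that phosphorylate eIF2 block this recharging. The cap-binding protein eIF4E, the scaffold eIF4G and the helicase eIF4A load the messenger RNA, and eIF3 bridges both sides. Early embryos live first on stored maternal messengers and then on their own, so that translation is under tight control until the embryonic genome takes over.

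The libraries were whole single bovine blastocysts and donor cells. IVF-BLs came from in vitro fertilized oocytes (6 male, 6 female). SCNT-BLs were made by fusing an ear skin fibroblast with an enucleated oocyte that was then activated (6 male, 6 female). Sham NT-BLs were fertilized zygotes that lost the polar body and some ooplasm, kept both pronuclei, and were then activated with ionomycin and DMAP (6 male, 5 female). Donor fibroblasts gave 1 library of each sex, with no replicate. The male and female libraries were sequenced on separate flow cells, so set and flow cell cannot be told apart, and levels were compared within a set only. Values are FPKM, which are per kilobase of transcript, and differences are of mean log2(FPKM + 1), tested with limma over all genes with Benjamini-Hochberg adjustment at 0.05.

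Summed FPKM ran from 414105 to 601000 per library. Correlations were taken over genes with a mean over 1 FPKM in the embryos. Sham NT-BLs stood apart from the IVF-BLs of their set, with a median correlation of 0.832 to them in the male set, against 0.881 within the male sham group. For male SCNT-BLs the values were 0.871 to male IVF-BLs and 0.906 within their group. Summed FPKM of 6 inner cell mass markers was lower in sham NT-BLs, with 31.2 to 88.5 against 133 to 163 in male IVF-BLs and 73.2 to 86.2 against 129 to 243 in female IVF-BLs. The 8 trophectoderm markers had means over 1 FPKM in every embryo group, with median sums of 5088 in IVF-BLs, 6518 in SCNT-BLs and 5223 in sham NT-BLs of the male set and 6192, 4286 and 3924 in the female set. Cumulus and granulosa markers summed to a median of 646 in male IVF-BLs and 46.6 in male sham NT-BLs, almost all of it from the rows of CYP11A1, while PTX3 stayed at or below 0.18 FPKM in every embryo. The fibroblast markers summed to at most 36.1 in an embryo, against 12909 and 8155 in the donor cells, and VIM was at or below 2.54 in every embryo. Primitive endoderm markers had median sums of 3837, 2948 and 5390 in male IVF-BLs, SCNT-BLs and sham NT-BLs. In the female groups they were 3057, 4006 and 5745. FN1 alone had medians of 3641, 2674 and 5217 in these male groups and 2828, 3816 and 5601 in the female groups. FN1 also stood at 3732 and 506 FPKM in male and female donor fibroblasts, so these sums do not measure primitive endoderm alone. Oocyte markers summed to at most 15.6 and blood markers to at most 81.2. By the mapping statistics the study lists, the share of reads mapped was lower in the male sham libraries other than replicate 2 than in the other male libraries, whereas the female sham libraries did not stand apart from the female IVF and SCNT ones. The part of these differences in the results below was not tested. In whole embryos, fewer cells of a type and less RNA per cell cannot be told apart.

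Most members were well expressed in every embryo. Of the 54, 40 had a mean over 10 FPKM in each of the 6 embryo groups and 15 a mean over 100 FPKM. The summed FPKM of the members ranged from 7982 to 9168 in male IVF-BLs, from 8242 to 10436 in male SCNT-BLs and from 7312 to 10324 in male sham NT-BLs. Female totals ranged from 9007 to 9518 in IVF-BLs, from 8115 to 10555 in SCNT-BLs and from 6589 to 8490 in sham NT-BLs. The female sham NT-BLs lay below the female IVF-BLs without overlap, whereas the male groups overlapped.

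On this per-length scale the helicase gene EIF4A1 had the highest mean of the members in IVF-BLs of both sets, at 933 ± 126 FPKM (SD, n = 6) in males and 1038 ± 266 in females. In male IVF-BLs it was followed by the eIF3 subunits EIF3D (760 ± 82.9), EIF3CL (750 ± 132), EIF3I (678) and EIF3H (503 ± 65.1). In female IVF-BLs it was followed by the eIF4A cofactor EIF4B (865 ± 255), EIF3K (763 ± 89.4), the eIF4E-binding EIF4EBP2 (705 ± 108) and EIF3CL (568.1 ± 104). Most neighbours in these orders lay closer together than the larger of their SDs. The exceptions were EIF4A1 over EIF3D in the male set and EIF4EBP2 over EIF3CL in the female set. At the low end were EIF5A2, EIF4E1B, EIF4EBP3, EIF2B3 and EIF2AK2. EIF4E1B, the oocyte form of eIF4E, was listed at 0 in 5 of 6 male IVF-BLs and 4 of 6 female IVF-BLs, and its highest value in any embryo was 5.57 FPKM. EIF5A2 was the only member with a mean under 1 FPKM in all 6 embryo groups, and with a mean at or below 0.1 FPKM it left the tests except in male SCNT-BLs against sham NT-BLs. Among members over 10 FPKM, the median coefficient of variation between embryos was 19.0% in male IVF-BLs, against 28.4% for all genes over 10 FPKM, and 32.3% in male sham NT-BLs, against 38.2%.

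**Figure D1:**
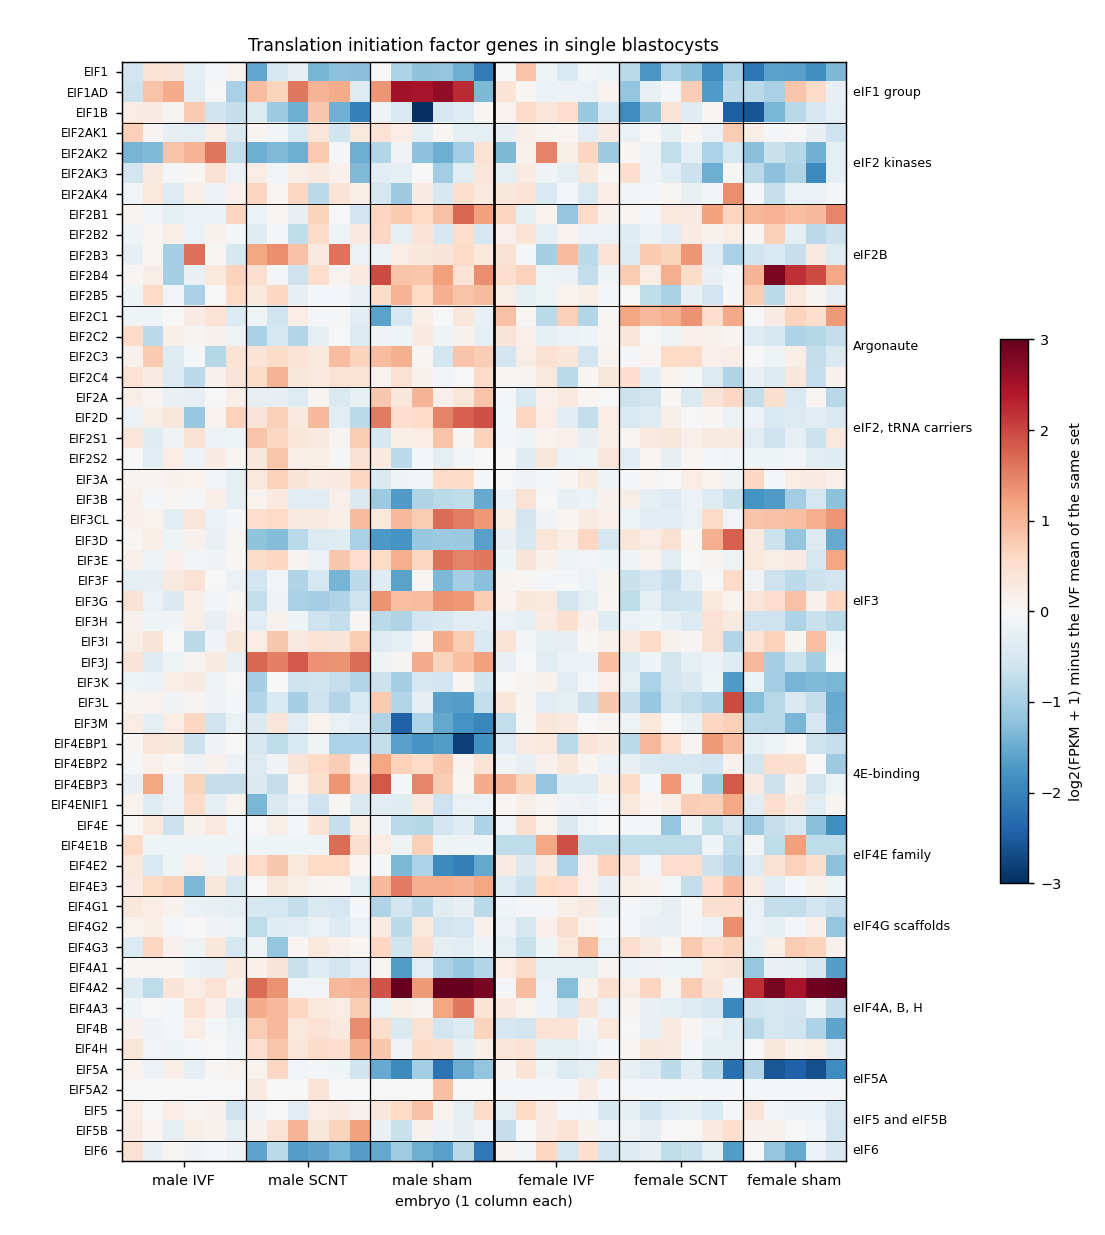
Each row is a member, grouped by complex, and each column an embryo; the colour is its log2(FPKM + 1) minus the mean of the IVF-BLs of the same set, from -3 (blue) to 3 (red). The red row of EIF4A2 and the blue row of EIF5A run through the sham NT-BLs of both sets, and the row of EIF3J is red in all 6 male SCNT-BLs.

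Sham NT-BLs against IVF-BLs asks what manipulation and chemical activation leave in embryos that keep their fertilized genome. In the male set 19 of 53 members tested passed, 8 higher and 11 lower, where 12.1% of all genes tested passed (6.13% higher, 5.96% lower). With each library centred on its median the same number passed, but as 10 higher and 9 lower. In a further fit replicate 2 was the only male sham embryo. Its mapped share was not low, if the study's list and the labels number embryos alike. All 19 differences kept their direction, but replicate 2 is also among the embryos behind those calls, so this is no separate support. That fit was added after the data were seen and assumes that the lone embryo varies like the IVF-BLs. Among female embryos 13 of 53 passed, 4 higher and 9 lower, where 13.5% of all genes passed (7.03% higher, 6.47% lower). Since most members are abundant, the closer background is the genes over 10 FPKM: 18 of 43 such members passed in the male set, against 25.2% of all such genes, and 13 of 43 in the female set, against 26.4%. The median member difference was -0.03 in the male set and -0.23 in the female set, beside -0.02 and -0.09 over all genes. Members without overlap between the groups numbered 11 of 53 in the male set, where 6.62% of all genes had none. In the female set they numbered 10 of 53, where 9.02% of all genes had none. Here and in the later comparisons, the share without overlap was not computed for genes over 10 FPKM. Without the filter on low values the male calls of EIF1, EIF2B4, EIF2D, EIF3F and EIF4E3 were lost (limma, adjusted p up to 0.0782), as were the female calls of EIF2B1, EIF3L and EIF4B (up to 0.083).

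The largest difference was in EIF4A2, the second helicase of the eIF4A pair, whose protein is closely similar to EIF4A1. Male IVF-BLs had 17.1, 33.4 and 39.9 FPKM (lowest, median, highest) and male sham NT-BLs 73.0, 258 and 417. Female IVF-BLs had 6.31, 17.4 and 32.9, and the 5 female sham NT-BLs had 82.0, 128, 98.7, 134 and 215. Every sham NT-BL lay above every IVF-BL of its set. EIF4A2 was 2.76 ± 0.38 (SE) higher on the log2 scale in the male set (limma, adjusted p = 0.000217) and 2.82 ± 0.35 higher in the female set (adjusted p = 0.000125). EIF4A1 lay lower in sham NT-BLs, at -0.82 ± 0.26 in the male set (adjusted p = 0.0518, 95% interval -1.37 to -0.26) and -0.76 ± 0.29 in the female set (adjusted p = 0.106), and passed in neither. The ratio of EIF4A1 to EIF4A2 in FPKM ran from 19.98 to 55.8 in male IVF-BLs and from 0.698 to 10.2 in male sham NT-BLs. For females it ran from 45.0 to 130 and from 1.51 to 8.72. The groups did not overlap in either set, as was already so for EIF4A2 alone. In the donor fibroblasts the ratio was 3.52 and 3.81.

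EIF5A fell in sham NT-BLs of both sets. This gene, which encodes the hypusine-bearing factor that helps the ribosome through difficult peptide bonds, had 201, 260 and 285 FPKM in IVF-BLs of the male set and 52.2, 86.9 and 122 in male sham NT-BLs. Female IVF-BLs had 269, 351 and 471, and female sham NT-BLs 193, 59.7, 65.9, 56.3 and 95.4. The groups did not overlap in either set, with a difference of -1.55 ± 0.21 (adjusted p = 0.000221, limma) in males and -2.08 ± 0.30 (adjusted p = 0.000369) in females.

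EIF1, which guards the choice of the start codon, fell in both sets. It had 25.4, 38.8 and 50.9 FPKM in IVF-BLs of the male set and 8.14, 16.1 and 38.2 in male sham NT-BLs, and these groups overlapped through sham replicate 1. Female IVF-BLs had 38.5, 49.4 and 96.96, and female sham NT-BLs 11.1, 17.01, 16.6, 14.2 and 20.6, without overlap. The differences were -1.15 ± 0.31 (limma, adjusted p = 0.0205) and -1.71 ± 0.25 (adjusted p = 0.000393). The male call was lost without male IVF replicate 2 (adjusted p = 0.0515). Its paralog EIF1B and EIF1AD passed in neither set.

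**Figure D2:**
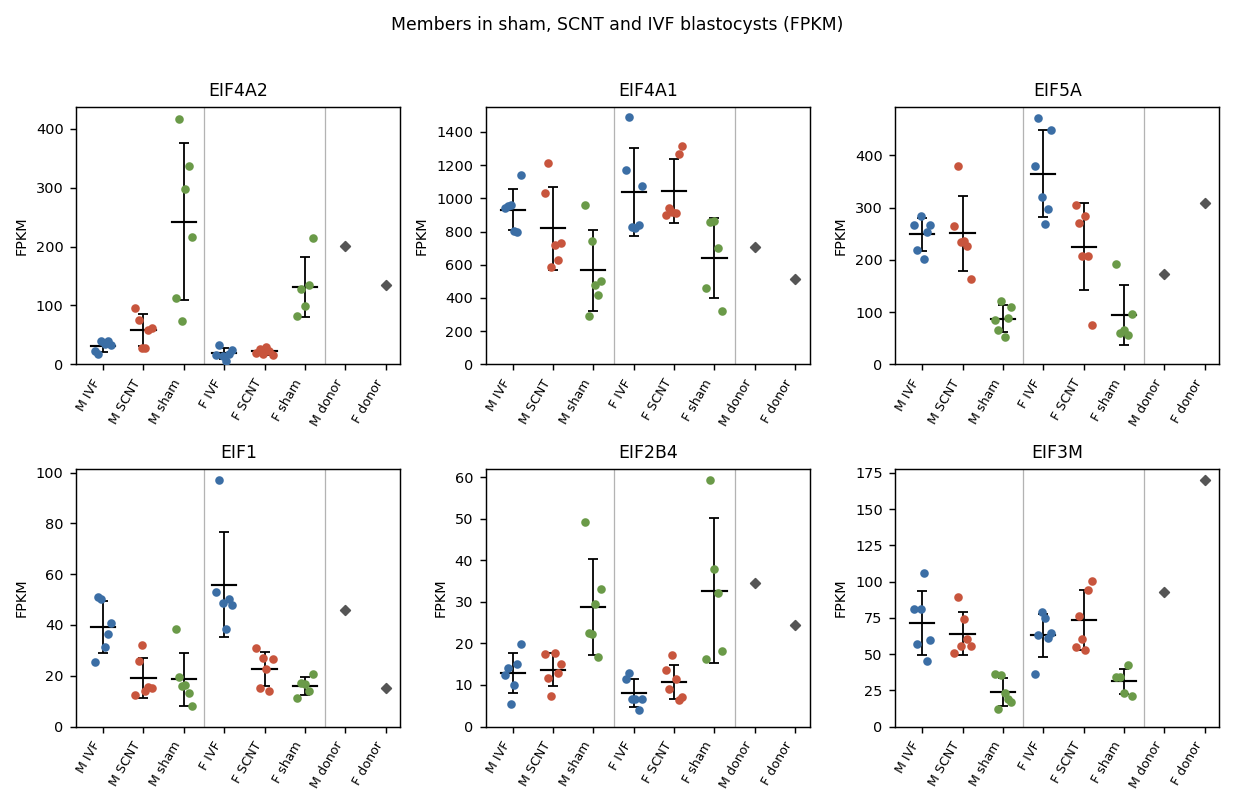
FPKM of 6 members in each embryo (circles) and in the donor cells (diamonds), by set (M, F) and origin; bars are the mean ± SD of 5 or 6 embryos. EIF4A2 and EIF2B4 had higher means and EIF5A, EIF1 and EIF3M lower means in sham NT-BLs than in IVF-BLs of both sets, and EIF4A1 did not pass the test.

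In eIF2B, the 5-subunit exchange factor that recharges eIF2, 2 subunits were called higher in sham NT-BLs of both sets and none was called lower. EIF2B4, the delta subunit, had 5.53, 13.2 and 19.9 FPKM in IVF-BLs of the male set and 16.6, 26.01 and 49.3 in male sham NT-BLs, where the lowest sham embryo lay within the IVF range. Female IVF-BLs had 4.09, 6.71 and 12.8 and female sham NT-BLs 16.3, 59.3, 37.8, 32.1 and 18.2, all above the IVF range. The log2 differences were 1.11 ± 0.31 (limma, adjusted p = 0.0261) and 1.83 ± 0.36 (adjusted p = 0.00314). The male EIF2B4 call was lost without male IVF replicate 3 or 4 or male sham replicate 1, 4 or 6, at adjusted p up to 0.0569. EIF2B1, the alpha subunit, rose by 0.98 ± 0.23 (adjusted p = 0.00931) from a mean of 69.2 ± 18.5 to 139 ± 46.4 FPKM in the male set. Female EIF2B1 rose by 1.08 ± 0.29 (adjusted p = 0.0209) from 49.8 ± 19.6 to 99.5 ± 17.2. EIF2B5, the catalytic epsilon subunit, differed by 0.84 ± 0.27 in males (adjusted p = 0.0516) and by 0.02 ± 0.26 in females (adjusted p = 0.969), and neither EIF2B2 nor EIF2B3 passed. Summed over the 5 subunits, every sham NT-BL was above every IVF-BL. The sums were 200 to 325 against 118 to 185 FPKM in males and 180 to 248 against 111 to 170 in females. They include EIF2B1 and EIF2B4, both called higher, so they are no separate result.

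Of eIF2 itself, neither subunit measured passed in either set. EIF2S1, the alpha subunit of eIF2 that the stress kinases phosphorylate, differed by 0.25 ± 0.24 in the male set (95% interval -0.25 to 0.75) and by -0.30 ± 0.21 in the female set (-0.75 to 0.14). EIF2S2, the beta subunit, differed by -0.15 ± 0.20 and -0.20 ± 0.19, with intervals of -0.57 to 0.28 and -0.62 to 0.21. These intervals leave room for differences of up to about 0.75 on the log2 scale. EIF2D, a separate initiator tRNA carrier, rose in male sham NT-BLs from 8.35 ± 3.36 to 22.3 ± 8.86 FPKM (1.31 ± 0.35, limma adjusted p = 0.0201), a call lost without male sham replicate 5 or 6 (adjusted p up to 0.0504). Female EIF2D differed by -0.36 ± 0.27 (adjusted p = 0.423). None of the 4 eIF2 kinases passed in either set. EIF2AK3, the kinase of the endoplasmic reticulum, came nearest with -1.02 ± 0.34 in females (adjusted p = 0.0586).

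The eIF3 subunits did not move as a block. In the male set 8 of 13 passed, 3 higher and 5 lower, and in the female set 6 of 13, 1 higher and 5 lower. Over all genes 12.1% and 13.5% passed, and of genes over 10 FPKM 25.2% and 26.4%. The median difference over the 13 was -0.53 in males and -0.54 in females. EIF3B, a core scaffold subunit, had 21.4, 26.8 and 30.5 FPKM in IVF-BLs of the male set and 7.42, 12.8 and 15.2 in male sham NT-BLs. It had 27.6, 30.4 and 43.6 in female IVF-BLs and 8.57, 9.26, 15.3, 22.6 and 13.1 in female sham NT-BLs. All sham NT-BLs lay below the IVF range, and the differences were -1.13 ± 0.23 (limma, adjusted p = 0.00413) and -1.25 ± 0.26 (adjusted p = 0.00486).

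EIF3M, a subunit of the outer ring, was also lower in both sets. Its mean was 71.5 ± 22.1 in male IVF-BLs and 23.8 ± 9.94 in male sham NT-BLs (-1.59 ± 0.28, limma adjusted p = 0.00165). In females the means were 63.0 ± 14.98 and 31.1 ± 8.85 (-0.999 ± 0.25, adjusted p = 0.0145). EIF3H fell by 0.57 in males (adjusted p = 0.0496) and by 0.73 in females (adjusted p = 0.0312). The male EIF3H call was lost without any single embryo other than male sham replicate 5 (adjusted p up to 0.102), and the female one without female IVF replicate 3, 4 or 5 or female sham replicate 2, 3 or 4 (up to 0.0842).

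EIF3CL moved the other way, and was the only eIF3 subunit called higher in both sets. Male IVF-BLs had 583, 754 and 945 FPKM and male sham NT-BLs 929, 1650 and 2386, with male sham replicate 1 inside the IVF range. Female IVF-BLs had 379, 602 and 660 and female sham NT-BLs 1017, 1026, 1050, 1163 and 1409, without overlap. The differences were 1.10 ± 0.25 (limma, adjusted p = 0.00838) and 1.01 ± 0.22 (adjusted p = 0.0071). The ratio of EIF3CL to EIF3B lay between 20.9 and 37.4 in male IVF-BLs and between 78.4 and 210 in male sham NT-BLs. For females it lay between 8.70 and 23.2 in IVF-BLs and between 51.5 and 119 in sham NT-BLs. This ratio joins a member called higher with one called lower, so it is no separate result.

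Further subunits passed in a single set. In male sham NT-BLs EIF3E (1.17 ± 0.21, limma adjusted p = 0.00195) and EIF3G (1.10 ± 0.19, adjusted p = 0.00152) rose, and EIF3D, which can bind the cap itself, fell from 647, 774 and 854 FPKM to 221, 293 and 357 (-1.41 ± 0.19, adjusted p = 0.000224). EIF3F fell by 0.93 (adjusted p = 0.0313), a call lost without male IVF replicate 3, 4 or 5 or male sham replicate 2, 4, 5 or 6 (up to 0.0738). In female sham NT-BLs EIF3K fell by 1.06 (adjusted p = 0.00994) and EIF3L by 0.95 (adjusted p = 0.0321), the latter not without female IVF replicate 1, 2 or 6 or female sham replicate 1, 2 or 5 (up to 0.0739). EIF3A, the largest subunit, differed by 0.07 ± 0.21 and 0.24 ± 0.19 and passed in neither set. Whether these changes differ between the sets was tested as an interaction, and no member passed: 0 of 53 in limma, 13 at an unadjusted p under 0.05, where 1.22% of all genes passed.

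**Figure D3:**
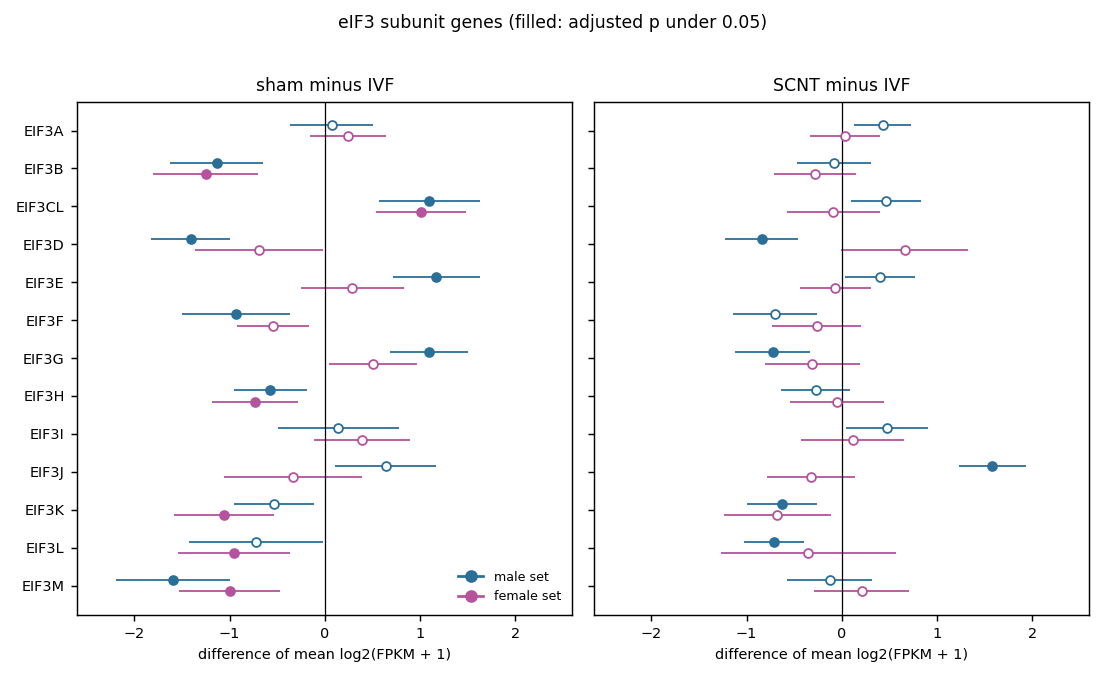
Difference of mean log2(FPKM + 1) from IVF-BLs for the 13 eIF3 subunit genes, for sham NT-BLs on the left and SCNT-BLs on the right; bars are 95% intervals and filled points passed at an adjusted p under 0.05. EIF3CL lies right of 0 and EIF3B, EIF3H and EIF3M left of 0 in sham NT-BLs of both sets, and EIF3J stands at 1.58 in male SCNT-BLs.

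Around the cap, the sets differed in which members passed. In male sham NT-BLs EIF4EBP1, an inhibitor that sequesters eIF4E when mTOR is low, fell from 45.2, 72.7 and 93.1 FPKM to 9.37, 20.8 and 43.3, below every IVF-BL (-1.74 ± 0.29, limma adjusted p = 0.00106). In females it differed by -0.35 ± 0.25 (adjusted p = 0.414). EIF4E2, a cap-binding repressor, fell in males from 115, 160 and 196 FPKM to 37.2, 57.4 and 150 (-1.31 ± 0.29, adjusted p = 0.00714), with overlap through male sham replicate 1. In females EIF4E2 differed by 0.00 ± 0.36 (95% interval -0.76 to 0.76). EIF4E itself fell in female sham NT-BLs from 21.9 ± 4.85 to 10.2 ± 3.68 FPKM (-1.08 ± 0.27, adjusted p = 0.0164) and differed by -0.61 ± 0.25 in males (adjusted p = 0.128). The abundant EIF4EBP2 passed in neither set. Its ratio to EIF4E had a median of 72.3 in male and 66.2 in female sham NT-BLs, against 24.5 and 32.4 in IVF-BLs, and the ranges overlapped in both sets.

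Of the remaining factors, EIF6, which keeps the large ribosomal subunit from joining too early, fell in male sham NT-BLs from 103, 112 and 165 FPKM to 26.01, 41.5 and 66.7 (-1.45 ± 0.22, limma adjusted p = 0.000579) without overlap. In females EIF6 differed by -0.67 ± 0.31 (adjusted p = 0.17). EIF4G1, the main scaffold, fell by 0.61 in males (adjusted p = 0.0449), a call lost without male IVF replicate 1, 2, 3 or 5 or male sham replicate 1, 2, 3, 4 or 6 (up to 0.103), and differed by -0.58 ± 0.19 in females (adjusted p = 0.0542). EIF4E3, an atypical cap binder, rose by 1.15 ± 0.36 in males (adjusted p = 0.0483) but not without male IVF replicate 1, 4, 5 or 6 or any male sham embryo (up to 0.0973). EIF4B fell by 0.89 in females (adjusted p = 0.0403), but not without female IVF replicate 3, 4, 5 or 6 or female sham replicate 1, 3, 4 or 5 (up to 0.0864). EIF5 and EIF5B, which release eIF2 and join the subunits, passed in neither set, with 95% intervals that reached from -0.59 at the lowest to 0.83 at the highest on the log2 scale.

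Set side by side, the male and female sham comparisons, which share no embryo, had 9 members called in the same direction and 0 called in opposite directions: EIF4A2, EIF2B1, EIF2B4 and EIF3CL higher, and EIF1, EIF3B, EIF3H, EIF3M and EIF5A lower. The 9 were 47.4% of the male and 69.2% of the female calls, where over all genes 44.3% and 38.6% were shared in this way. Across the 53 members the 2 sets of differences correlated at r = 0.717, beside 0.528 over all genes. The members share embryos and libraries, so this describes the genes and is no test. Shared calls and correlations were not computed over genes over 10 FPKM, the closer background, here or for SCNT-BLs against sham NT-BLs below. Whether the members exceed that background was not tested.

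SCNT-BLs against IVF-BLs compares embryos with a reprogrammed fibroblast nucleus with embryos of a fertilized genome. The SCNT-BLs also went through enucleation, fusion and activation, and in this comparison these cannot be told apart from the nucleus. In the male set 10 of 53 members passed, 4 higher and 6 lower, where 6.98% of all genes (3.34% higher, 3.64% lower) and 15.3% of genes over 10 FPKM passed. All 10 were among the 42 members over 10 FPKM. Among female embryos 0 of 53 passed in limma, 6 at an unadjusted p under 0.05, where 0.321% of all genes and 0.529% of genes over 10 FPKM passed. The median member difference was 0.01 in males and -0.05 in females, beside -0.01 and -0.04 over all genes. The male count was 4 to 5 without the filter on low values, without the variance trend or with the sham NT-BLs in the same fit.

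The clearest member was EIF3J, the loosely bound eIF3 subunit that sits at the decoding site and helps release the small ribosomal subunit. It had 48.3, 61.9 and 83.4 FPKM in male IVF-BLs, 162, 195 and 231 in male SCNT-BLs and 57.1, 110 and 149 in male sham NT-BLs. The lowest male SCNT-BL exceeded the highest embryo of either other male group. EIF3J was 1.58 ± 0.16 higher than in IVF-BLs (limma, adjusted p = 7.1e-05) and 0.94 ± 0.24 higher than in sham NT-BLs (adjusted p = 0.0175), and both calls held without each embryo in turn. Female SCNT-BLs had 55.9, 66.0 and 76.1 FPKM and female IVF-BLs 66.5, 73.0 and 155, a difference of -0.32 ± 0.22 (adjusted p = 0.603). The effect differed between the sets by 1.90 ± 0.26 in the interaction test (adjusted p = 0.000592), where 1.91% of all genes passed (0.849% higher, 1.06% lower), and it held without each embryo in turn. Male and female SCNT-BLs came from different donor fibroblasts, so sex and donor cells cannot be told apart in any SCNT interaction here. The male donor fibroblasts had 54.1 FPKM of EIF3J and the female ones 130.

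EIF3D, the other member past the interaction test, moved in the opposite direction. Male SCNT-BLs had 307, 408 and 586 FPKM, all below the 647, 774 and 854 of male IVF-BLs (-0.84 ± 0.18, limma adjusted p = 0.0118). Female SCNT-BLs had 425, 545 and 1425 and female IVF-BLs 287, 414 and 631 (0.66 ± 0.31, adjusted p = 0.46). The interaction was -1.50 ± 0.37 (adjusted p = 0.0328). It was lost with no filter on low values (adjusted p = 0.0531) and without male IVF replicate 1, 2 or 6, male SCNT replicate 1 or 2, female IVF replicate 1, 2 or 6 or female SCNT replicate 5 (up to 0.0618).

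EIF6, the factor on the large subunit, fell in male SCNT-BLs. Male SCNT-BLs had 37.3, 39.5 and 67.5 FPKM against 103, 112 and 165 in IVF-BLs, without overlap (-1.44 ± 0.18, limma adjusted p = 0.000211). Female SCNT-BLs had 25.8, 58.6 and 72.1 against 57.0, 85.3 and 131 (-0.67 ± 0.28, adjusted p = 0.386), with overlap. The interaction for EIF6 was -0.77 ± 0.34 (adjusted p = 0.269), so a difference between the sets was not shown. Against sham NT-BLs, SCNT-BLs differed by 0.01 ± 0.24 in males and 0.00 ± 0.32 in females.

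**Figure D4:**
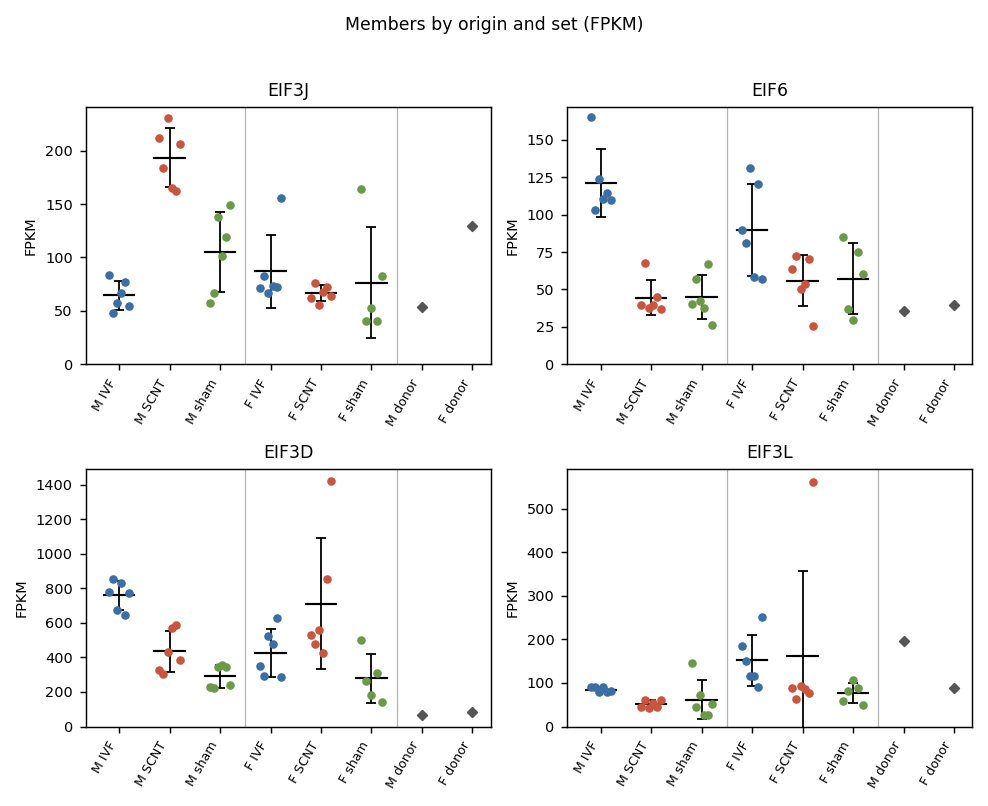
FPKM of 4 members in each embryo (circles) and in the donor cells (diamonds), by set (M, F) and origin; bars are the mean ± SD of 5 or 6 embryos. Against male IVF-BLs, EIF3J stands higher and EIF6, EIF3D and EIF3L lower in male SCNT-BLs, and 1 female SCNT-BL stands at 561 FPKM of EIF3L and 1425 of EIF3D.

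The further male SCNT calls were smaller. EIF3L fell from 78.1, 85.3 and 90.9 FPKM to 41.6, 50.3 and 61.4, without overlap (-0.71 ± 0.15, limma adjusted p = 0.00898), a call lost with all embryo groups of the set in 1 fit (adjusted p = 0.182). EIF4H, which stimulates the eIF4A helicases, rose from 163, 169 and 227 to 229, 255 and 371, also without overlap (0.63 ± 0.15, adjusted p = 0.0202), a call lost without the variance trend (adjusted p = 0.0541) and with all groups in 1 fit (adjusted p = 0.0551). EIF4B, the other stimulator, rose by 0.70 ± 0.19 (adjusted p = 0.0366) and EIF4A3, the helicase of the exon junction complex, by 0.66 ± 0.18 (adjusted p = 0.039). The EIF4B call was lost without male IVF replicate 1, 2, 3, 5 or 6 or male SCNT replicate 1, 2 or 6 (up to 0.0742), and that of EIF4A3 without male IVF replicate 1, 2, 3, 5 or 6 or male SCNT replicate 1, 2, 3 or 6 (up to 0.0897). EIF3G fell by 0.73 (adjusted p = 0.0285), but not without male IVF replicate 1, 4 or 6 or male SCNT replicate 1, 3, 4 or 5 (up to 0.064). EIF3K fell by 0.63 (adjusted p = 0.0387), and only leaving out male SCNT replicate 2 kept that call (up to 0.0884).

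EIF1 fell in male SCNT-BLs and missed the threshold in female ones. Male SCNT-BLs had 12.3, 15.5 and 32.0 FPKM against 25.4, 38.8 and 50.9 in IVF-BLs (-1.04 ± 0.25, limma adjusted p = 0.0215), and the call was lost without male IVF replicate 2 or male SCNT replicate 1 (up to 0.0537). Female SCNT-BLs had 13.9, 24.6 and 30.7 against 38.5, 49.4 and 96.96 in IVF-BLs, without overlap (-1.26 ± 0.26, adjusted p = 0.0512). EIF1 was the only member of 53 without overlap in the female set, where 1.38% of all genes had none, against 8 of 53 in the male set, where 4.27% had none. The eIF2 and eIF2B subunits passed in neither set: EIF2S1 differed by 0.49 ± 0.18 in males (adjusted p = 0.131) and 0.23 ± 0.17 in females, and EIF2B5 by 0.07 ± 0.27 and -0.42 ± 0.23. EIF4A2 differed by 0.81 ± 0.31 in males (adjusted p = 0.143) and 0.33 ± 0.32 in females (adjusted p = 0.72), and EIF5A by -0.02 ± 0.18 and -0.79 ± 0.31.

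Among female SCNT-BLs, replicate 6 stood apart. It held 8 of the 26 member values that stood apart from the rest of their group, and its median correlation to the other female SCNT-BLs was 0.851, the lowest of the 6. In that embryo EIF4G2, an eIF4G-like scaffold that lacks the eIF4E site, stood at 1079 FPKM against 349 to 396 in the others, and EIF3L at 561 against 64.2 to 92.9. EIF5A stood at 75.3 against 208 to 306. Without it, 0 of 53 members passed against IVF-BLs and 10 against sham NT-BLs, the same counts as with it.

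SCNT-BLs against sham NT-BLs compares 2 kinds of manipulated embryo, which share the sham NT-BLs with the comparison above. Among male embryos 14 of 54 members passed, 7 higher and 7 lower, where 11.8% of all genes (5.67% higher, 6.13% lower) and 24.4% of genes over 10 FPKM passed (13 of 44 members over 10 FPKM). Among female embryos 10 of 53 passed, 6 higher and 4 lower, where 11.3% (5.21% higher, 6.07% lower) and 22.9% passed (10 of 43). Members without overlap between the groups were 5 above and 3 below in males, where 6.39% of all genes had none, and 5 above and 2 below in females, where 8.48% had none. With replicate 2 as the only male sham embryo, all 14 male differences kept their direction, though replicate 2 is among the embryos behind those calls. Without the filter on low values the female calls of EIF3D, EIF3G, EIF4B and EIF5A (limma, adjusted p up to 0.131) and the male call of EIF2B4 (0.0582) were lost. In both sets EIF4A2, EIF2B4 and EIF3G were lower and EIF3B, EIF3M and EIF5A higher in SCNT-BLs, and these 6 were 42.9% of the male and 60% of the female calls, where 33.5% and 34.3% were shared over all genes. Male SCNT-BLs had 27.7, 60.1 and 95.8 FPKM of EIF4A2 against 73.0, 258 and 417 in sham NT-BLs, with overlap (-1.95 ± 0.42, limma adjusted p = 0.00583). In females the 15.7, 21.0 and 29.3 of SCNT-BLs lay below every sham NT-BL (-2.49 ± 0.26, adjusted p = 6.4e-05).

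EIF3G, a subunit that binds RNA during scanning, separated the male groups most sharply among eIF3. Male SCNT-BLs had 63.4, 74.0 and 122 FPKM and male sham NT-BLs 223, 285 and 336, without overlap (-1.82 ± 0.20, limma adjusted p = 6.2e-05). In females the values were 104, 131 and 220 against 227, 255, 328, 195 and 275, with overlap (-0.82 ± 0.24, adjusted p = 0.0416), and this call was lost without female SCNT replicate 1, 2, 3 or 4 or female sham replicate 1, 2, 3 or 5 (up to 0.113). EIF5A was 1.53 ± 0.24 higher in male SCNT-BLs (adjusted p = 0.000708) and 1.29 ± 0.38 higher in female ones (adjusted p = 0.0386). The female EIF5A call held only without female SCNT replicate 6 or female sham replicate 1 and reached 0.102 otherwise. EIF3B was 1.05 ± 0.24 higher in male SCNT-BLs (adjusted p = 0.00954) and 0.97 ± 0.27 in females (adjusted p = 0.0329), the female call being lost without female SCNT replicate 1, 2, 3 or 4 or female sham replicate 1, 2, 3 or 5 (up to 0.0845). EIF3M was 1.47 ± 0.27 (adjusted p = 0.00202) and 1.21 ± 0.25 (adjusted p = 0.00643) higher. EIF2B4 differed by -0.99 ± 0.28 in males (adjusted p = 0.0313) and by -1.44 ± 0.35 in females (adjusted p = 0.0155). The male EIF2B4 call was lost without male SCNT replicate 2, 3 or 5 or male sham replicate 1, 4 or 6 (up to 0.0731).

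In the male set alone EIF4E2 (1.79 ± 0.29, limma adjusted p = 0.000849), EIF4EBP1 (1.12 ± 0.29, adjusted p = 0.0178), EIF3J and EIF5B (0.83 ± 0.22, adjusted p = 0.0196) were higher in SCNT-BLs. EIF4E3 (-1.09 ± 0.26, adjusted p = 0.0111), EIF2B1 (-1.02 ± 0.24, adjusted p = 0.0106), EIF2A (-0.84 ± 0.21, adjusted p = 0.015) and EIF2B5 (-0.77 ± 0.22, adjusted p = 0.032) were lower. EIF5B was lost without male SCNT replicate 3 (0.0509), and EIF2B5 without male SCNT replicate 3, 4, 5 or 6 or male sham replicate 2, 4, 5 or 6 (up to 0.0725). In the female set alone EIF3CL was lower (-1.10 ± 0.25, adjusted p = 0.00961), and EIF3D (1.35 ± 0.36, adjusted p = 0.0255), EIF4B (0.84 ± 0.25, adjusted p = 0.0424) and EIF2C2 (0.77 ± 0.23, adjusted p = 0.0396) were higher. EIF3D was lost without female sham replicate 2, 3 or 5 (up to 0.0742), EIF4B without female SCNT replicate 1, 2, 3 or 4 or female sham replicate 1, 3, 4 or 5 (up to 0.0958), and EIF2C2 without any embryo other than female SCNT replicate 6 and female sham replicate 1 (up to 0.101). The differences between sets were not tested for this comparison. Over the 6 comparisons within a set, 30 of the 54 members passed at least once and 24 never. The share of all genes that passed at least once was not computed, so these counts have no background beside them. Among the 24 were EIF4A1, EIF3A, EIF3I, EIF2S1, EIF2S2, EIF5 and the 4 eIF2 kinases.

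The donor fibroblasts, with 1 library a set and so no test, lay outside the embryo range for some members of most complexes. The male donor library had 10 of 54 members above all 18 embryos and 9 below, where 23.5% and 13.5% of all genes were. The female donor library had 10 of 53 above all 17 embryos and 10 below, where 26.1% and 15% were. EIF2S1 stood at 325 FPKM in male donor cells against 55.5 to 142 in the male embryos, and at 275 in female donor cells against 45.0 to 88.9. EIF2A, an alternative initiator tRNA carrier, stood at 120 and 60.0 against 18.4 to 52.6 and 17.5 to 50.2, and EIF2D at 32.8 and 30.1 against 2.998 to 32.6 and 7.45 to 20.4. EIF2AK3 (25.1 and 12.9), EIF4E (43.0 and 42.9) and EIF2C3 (17.1 and 14.9) were also above every embryo in both sets.

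Below every embryo in both sets were EIF3D, EIF5B, EIF3A, EIF4EBP2, EIF4H and EIF2AK4, the amino acid sensing kinase. The share of all genes outside the embryo range in both sets was not computed, so the members listed for both sets have no background beside them. EIF3D stood at 69.5 FPKM in male donor cells, against 221 to 854 in the male embryos, and at 85.5 in female donor cells, against 143 to 1425. EIF4EBP2 stood at 188 and 69.1 against at least 351 and 326 in the embryos. Measured from the SCNT mean on the log2 scale, the members farthest above in the male donor cells were EIF2A (2.44), EIF3E (2.37), EIF2AK3 (2.36), EIF2AK2 (2.25) and EIF3L (1.92), and those farthest below EIF3D (-2.58), EIF5B (-2.31), EIF2C4 (-2.18), EIF4E2 (-2.16) and EIF3J (-1.81). In the female donor cells they were EIF4A2 (2.602), EIF2AK2 (2.54), EIF1AD (2.17), EIF2S1 (1.72) and EIF4E (1.40) above, and EIF4EBP2 (-2.97), EIF3D (-2.91), EIF2AK4 (-2.22), EIF2C1 (-1.92) and EIF4B (-1.87) below. EIF2AK2, the kinase that senses double-stranded RNA, was low in SCNT-BLs, at 0 to 3.78 FPKM in males, with 3 of 6 listed at 0, and 0.413 to 1.81 in females. It was also low in sham NT-BLs, at 0 to 2.76 in males and 0 to 1.24 in females. In IVF-BLs it ran from 0.0508 to 7.47 in males and from 0.0705 to 6.73 in females, and it passed in no comparison.

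**Figure D5:**
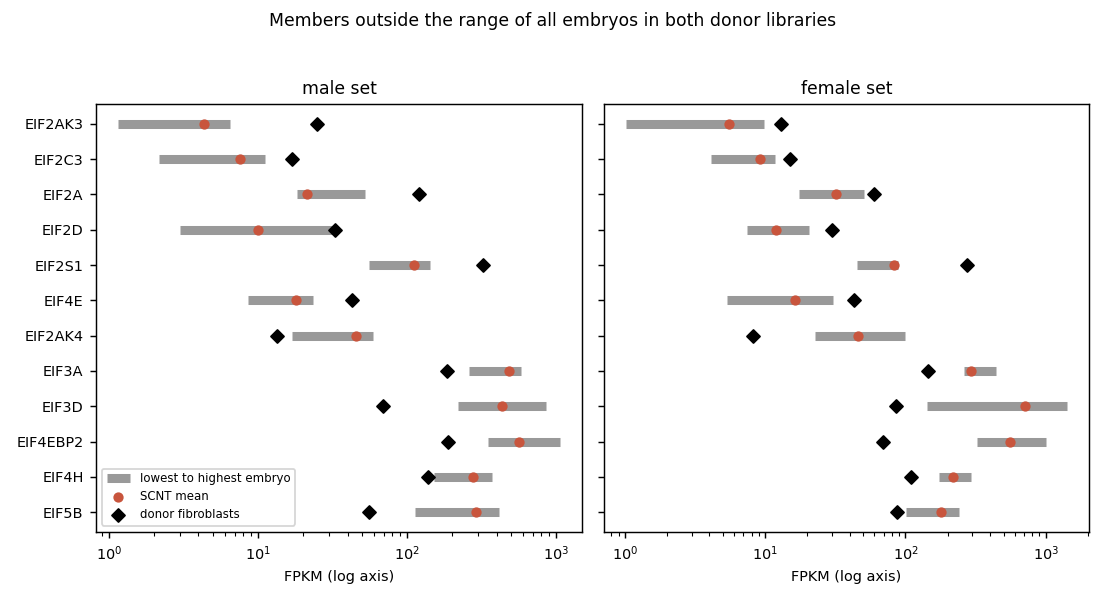
FPKM on a log axis of the 12 members that lay outside the range of all embryos in both donor libraries; grey bars run from the lowest to the highest embryo of the set (18 male, 17 female), circles are SCNT means and diamonds the donor fibroblasts. The 6 upper members lie right of the bars and the 6 lower ones left of them, and the male EIF2D diamond touches the end of its bar.

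Genes around the initiation factors were read from 5 lists. Their 69 tested genes gave 11 higher and 8 lower in male and 6 higher and 7 lower in female sham NT-BLs against IVF-BLs. Of all genes 12.1% and 13.5% passed, and of genes over 10 FPKM 25.2% and 26.4%. How many of the list genes lay over 10 FPKM was not counted. In sham NT-BLs against IVF-BLs, 2 of 10 elongation factors passed in the male set (1 higher, 1 lower) and 1 of 10 in the female set (lower): EEF1A1, which carries aminoacyl-tRNA to the ribosome, fell in both, by 1.53 (limma, adjusted p = 0.000842) and 1.85 (adjusted p = 0.000389). Of 9 termination and recycling factors, 2 passed in males and 1 in females, all higher, with the recycling factor DENR up by 1.87 (adjusted p = 3e-05) and 1.96 (adjusted p = 0.00239). Of 15 poly(A) and cap partners, 3 rose and 3 fell in males and 2 rose and 2 fell in females. PDCD4, which inhibits eIF4A, rose by 2.20 in each set (adjusted p = 0.00624 and 0.00177), and NCBP1, the nuclear cap-binding subunit, by 1.08 and 1.29 (adjusted p = 0.0265 and 0.000694). PABPC4, a cytoplasmic poly(A)-binding protein, fell by 0.75 and 1.47 (adjusted p = 0.0237 and 0.000395).

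Of 21 genes of mTOR and MNK signalling, 3 rose and 2 fell in male and 1 rose and 2 fell in female sham NT-BLs. Of all genes 12.1% and 13.5% passed in these comparisons. RPS6, a ribosomal protein phosphorylated downstream of mTOR, rose by 2.54 (limma, adjusted p = 1.7e-05) and 1.78 (adjusted p = 0.000793). Of 14 targets and phosphatases of the eIF2 kinase pathway, 2 rose and 2 fell in each set. DDIT3, a stress transcription factor, went from a mean of 113 to 585 FPKM in males (2.15, adjusted p = 0.00604) and from 121 to 558 in females (2.31, adjusted p = 0.000997). GCN1L1, which activates the kinase EIF2AK4, rose by 0.71 in each set (adjusted p = 0.0436 and 0.023). ATF4, the factor whose messenger is translated when eIF2 is phosphorylated, fell in females by 0.79 (adjusted p = 0.0312), as did the phosphatase subunit PPP1R15A by 1.83 (adjusted p = 0.000925), while PPP1R15B fell in males by 0.70 (adjusted p = 0.023). In male SCNT-BLs against IVF-BLs the lists gave 4 higher and 5 lower of 69 tested, where 6.98% of all genes and 15.3% of genes over 10 FPKM passed. Among the list genes that passed were RPS6 (1.07, limma adjusted p = 0.00128) and EEF1G, an elongation factor subunit (-1.15, adjusted p = 0.000892). In female SCNT-BLs 0 of 68 tested genes passed, where 0.321% of all genes did.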

How the data were processed

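Poly-A RNA of 37 libraries (35 embryos and 2 donor cell libraries) was amplified by the study with random primers and PCR and sequenced. The authors deposited 1 table of FPKM, made with Trim Galore, TopHat and Cufflinks on known transcripts of the UMD 3.1 assembly; versions were not given in the sources used here. The table holds no read counts. The study lists reads and mapped shares per library in a supplement. The mapped shares were read only to set the libraries side by side and to pick male sham replicate 2, and no value of them is printed. Counting error was not computed. An exact 0 was read as listed at 0. All columns were used (0 left out), and 803 rows share a symbol with another row. Close paralogs (EIF4A1 and EIF4A2, EIF3C and EIF3CL, EIF1 and EIF1B, EIF5A and EIF5A2) may share reads. Of the 54 members, 50 matched RefSeq by symbol, 3 by an older symbol and 1 not.

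Differences were tested with limma 3.58.1 in R 4.3.3 on log2(FPKM + 1) with a variance trend, over genes with a mean over 0.1 FPKM in the groups compared, and p-values were adjusted over every gene in the fit by the Benjamini-Hochberg method. The fold change of low genes is understated on this scale. Interaction terms compared the sets. The scripts were tested on simulated data with 200 changed genes. Same-numbered embryos of different groups did not deviate together (r from -0.239 to 0.0758, 0 pairs over 0.1), so numbers were not taken to pair embryos. Alternatives were a pseudocount of 0.1, a filter of 1 FPKM or none, median centring, no variance trend, a replicate block, all embryo groups of a set in 1 fit, leaving out each embryo and, chosen after the data were seen, replicate 2 as the only male sham embryo. The rule for named members took those past the threshold (up to 8 a direction in each comparison), the defining members of each complex, the 5 highest and 5 lowest in IVF-BLs, the 5 farthest above and below SCNT-BLs in donor cells, and those past an interaction test. Other members named were chosen after their values were seen. The members and gene lists were chosen with earlier results of these data known. Replicates were separate embryos.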

Additional observations from a re-analysis of the deposited data

Results flagged for a closer look

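Within the groups of 5 or 6 embryos, 26 of 307 sets of values held an embryo that stood far from the rest by Dixon's test, where chance gives about 1 in 20. Female SCNT replicate 6 held 8 of them. It was high in the kinases EIF2AK1 (35.0 FPKM, others 16.3 to 21.0) and EIF2AK4 (98.5, others 31.6 to 38.9), in EIF3L (561, others 64.2 to 92.9) and in EIF4G2 (1079, others 349 to 396). It was low in EIF3I (249, others 481 to 681), EIF4A3 (60.8, others 167 to 251), EIF5A (75.3, others 208 to 306) and EIF6 (25.8, others 50.1 to 72.1).

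Male SCNT replicate 2 held 3, with EIF2C4 at 15.4 FPKM (others 9.004 to 10.97), EIF4G3 at 26.4 (others 54.0 to 75.9) and EIF6 at 67.5 (others 37.3 to 45.2). In male SCNT replicate 6 EIF2AK3 was 1.16 (others 4.11 to 5.64), and in female SCNT replicate 5 EIF3CL was 836 (others 440.4 to 524).

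Among IVF-BLs, EIF1 stood at 96.96 FPKM in female replicate 2 (others 38.5 to 52.9), EIF3M at 36.0 in female replicate 1 (others 60.9 to 78.8) and EIF3J at 155 in female replicate 6 (others 66.5 to 82.8). EIF3A stood at 348 in female replicate 5 (others 262 to 291). Female replicate 4 had EIF2C4 at 5.08 (others 9.68 to 12.1) and EIF3K at 598 (others 743 to 838). In male IVF-BLs EIF4H stood at 227 in replicate 1 (others 163 to 179) and EIF5 at 64.1 in replicate 6 (others 98.4 to 116).

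Among sham NT-BLs, EIF1AD stood at 0.425 FPKM in male replicate 6 (others 8.17 to 22.2), EIF1B at 0.257 in male replicate 3 (others 6.34 to 9.63) and EIF4E3 at 13.3 in male replicate 2 (others 8.46 to 10.01). EIF2AK4 stood at 22.7 in female replicate 2 (others 32.0 to 36.5) and EIF2B1 at 129.7 in female replicate 5 (others 87.1 to 95.6).

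The effect of SCNT against IVF differed between the sets in the interaction test for EIF3J, by 1.90, and for EIF3D, by -1.50. For SCNT-BLs the sets differ in donor cells as well as in sex.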

How the results depend on the processing

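Members called in male SCNT-BLs against IVF-BLs numbered 10, and 5 with no filter, 5 without the variance trend, 5 with a replicate block and 4 with all embryo groups in 1 fit. In the female set 0 were called, and 1 with a filter of 1 FPKM or all groups in 1 fit, EIF1 each time. SCNT-BLs against sham NT-BLs in the female set gave 10 members, and 6 with the replicate block. The SCNT interaction gave 2, and 1 with no filter or with the block, and the sham interaction 0, and 1 with a filter of 1 FPKM. The cause was not tested. The labels number the embryos alike in each group, but those numbers did not pair them, and the block lowered the male sham count from 19 to 17 and took the EIF2A call from male SCNT-BLs against sham NT-BLs (adjusted p = 0.0576) and that of EIF4H against IVF-BLs (0.0655). A fit with replicate 2 as the only male sham embryo was chosen after seeing the data. In it sham against IVF gave 11 members, 9 of them among the 19, and SCNT against sham 7, all among the 14. A lone embryo gives no spread of its own, so these counts are set against no share of all genes and support no call.

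Leaving out each embryo in turn gave 6 to 9 members for SCNT against IVF in males and 0 to 1 in females, 14 to 19 for sham against IVF in males and 11 to 14 in females, 11 to 16 for SCNT against sham in males and 4 to 10 in females, 1 to 4 for the SCNT interaction and 0 to 1 for the sham interaction. Calls kept under every alternative and without each embryo numbered 12 of 19 (sham against IVF, males), 9 of 13 (females), 3 of 10 (SCNT against IVF, males: EIF3D, EIF3J and EIF6), 10 of 14 and 4 of 10 (SCNT against sham, males and females) and 1 of 2 (SCNT interaction). No direction was reversed under an alternative run. The table holds no counts, so counting error is set beside no value, and sets were sequenced apart.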
